A study of Mus musculus with 36 samples.

Results

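The genes described here encode the general machinery that shortens, decaps and degrades messenger RNA. They were chosen by gene symbol for their known roles and number 44 of the 52636 gene identifiers in the deposited count tables. They comprise 6 scaffold or module subunits and 4 deadenylases of the CCR4-NOT complex, 4 BTG/TOB adaptors, PAN2, PAN3 and PARN, 8 decapping factors, 2 5'-3' exonucleases, 8 subunits of the exosome core, 3 exosome nucleases and 6 factors of nonsense-mediated decay. All 44 were present in the files and all 44 passed the filter on low counts. RNA was sequenced from bone marrow-derived macrophages of C57BL/6N background, grown in M-CSF, either wild type or N4bp1 KO (knockout of the gene for NEDD4-binding protein 1, an RNA-binding protein with a ribonuclease domain). All groups received R837 (imiquimod, an agonist of Toll-like receptor 7). In each genotype the cells were taken at 3 h or at 7 h of R837, or at 3 h of R837 followed by 0.5, 1, 2 or 4 h of actinomycin D (ActD, which blocks transcription). That gave 12 groups of 3 libraries, and unstimulated cells were not analysed here.

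Most cytoplasmic mRNAs are degraded in steps. The poly(A) tail is first trimmed by PAN2-PAN3 and then removed by CCR4-NOT, whose catalytic subunits are CNOT6 or CNOT6L and CNOT7 or CNOT8. The deadenylated transcript loses its cap through DCP2 and its activators and is eaten from the 5' end by XRN1, or it is degraded from the 3' end by the exosome. TOB and BTG proteins bridge CNOT7 or CNOT8 to poly(A)-binding proteins or to sequence-specific RNA-binding proteins, and they are known as antiproliferative early-response genes. In macrophages this machinery takes part in removing cytokine mRNAs after an inflammatory stimulus.

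Library totals were 20.3 to 46.1 M counts, and the biological coefficient of variation was 7.48% in the model of 12 groups. The labels give 3 individual mice per group, but libraries could not be tied across conditions, so libraries of different conditions were treated as independent although they may share mice. N4bp1 was checked first. It was at 125, 147 and 128 CPM (counts scaled to library size after TMM normalization) in the wild-type libraries at 3 h and at 86.0, 85.0 and 81.3 CPM in the knockout libraries (log2 -0.67 ± 0.08, edgeR adjusted p = 1.08e-08), so its transcript was reduced and not absent. At 4 h of ActD it was higher in the knockout (87.7 ± 9.52 against 57.6 ± 5.11 CPM). Which exons were deleted is not stated in the labels, and reads outside them check nothing. The 10 macrophage markers summed to 20640 to 51990 CPM per library. Lyz2 alone was at 10170 to 40138 CPM. Cd163 reached at most 1.35 CPM and Mertk at most 13.1 CPM, and each of the others was at 118 CPM or more in every library. The 7 B and plasma cell markers summed to 36.2 to 61.1 CPM in wild-type and 70.4 to 109.9 CPM in knockout libraries, and the 6 fibroblast markers to 9.86 to 21.65 and 23.1 to 34.4 CPM. Their part in the knockout results was not tested. Fewer cells of a type and less RNA per cell cannot be told apart in these bulk libraries.

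Levels of different genes were compared per length, in the deposited RPKM values of wild-type cells at 3 h of R837. The members had a median of 6.04 RPKM, against 4.08 RPKM over all genes tested. The highest were Xrn2, the nuclear 5'-3' exonuclease, at 32.7 ± 0.274 RPKM (SD, n = 3), and Exosc9, an exosome core subunit, at 32.6 ± 2.24 RPKM, and these values overlapped. The lowest were Pan2, the catalytic subunit of the PAN2-PAN3 deadenylase, at 0.589 ± 0.0719 RPKM and Dcp1b, a decapping coactivator, at 0.687 ± 0.0583 RPKM. Of the 43 neighbouring pairs in this order, 31 overlapped between libraries.

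Most paralogs were unequal in level. The cytoplasmic exonuclease Xrn1 was at 3.13 ± 0.155 RPKM, well below Xrn2. Dcp1a was at 7.44 ± 0.498 RPKM against 0.687 ± 0.0583 for Dcp1b, and the deadenylase Cnot6 at 15.2 ± 0.30 against 4.28 ± 0.106 for Cnot6l. Cnot7 and Cnot8, the alternative CAF1-type deadenylases, were close, at 19.2 ± 1.15 and 22.3 ± 1.27 RPKM. Among the adaptors, Btg1 (22.1 ± 1.15) and Btg2 (19.8 ± 1.99) exceeded Tob2 (6.15 ± 0.368) and Tob1 (1.98 ± 0.417). Dis3 and Dis3l, the alternative nucleases of the exosome, were at 5.01 ± 0.410 and 3.96 ± 0.150 RPKM.

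When transcription was blocked, the adaptor mRNAs fell far faster than those of the enzymes they recruit. The rate was the slope of log2 expression over hours of ActD, fitted with edgeR on 30 libraries. Without a spike-in named in the labels, it compares each gene with the other transcripts and is not an absolute rate. In wild-type cells 23 of the 44 members had a negative slope and 10 a positive one at an adjusted p below 0.05. Of the 13537 genes tested 34.8% were negative and 35.5% positive, 70.3% in either direction. The share of members called was 75%, close to this background, and the median member slope was -0.13 per hour against 0.01 over all genes. In knockout cells 25 had a negative and 11 a positive slope (35.8% and 32.3% of all genes, 68.1% in either direction), with a median of -0.10. Slopes below -1 per hour were found for 5 members (11.4%) and for 3.78% of all genes tested in wild-type cells. Slopes below -0.5 were found for 7 members (15.9%) and for 12.6% of all genes tested. In knockout cells 5 members (11.4%) and 3.64% of all genes lay below -1, and 7 (15.9%) and 12.3% below -0.5.

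**Figure D1:**
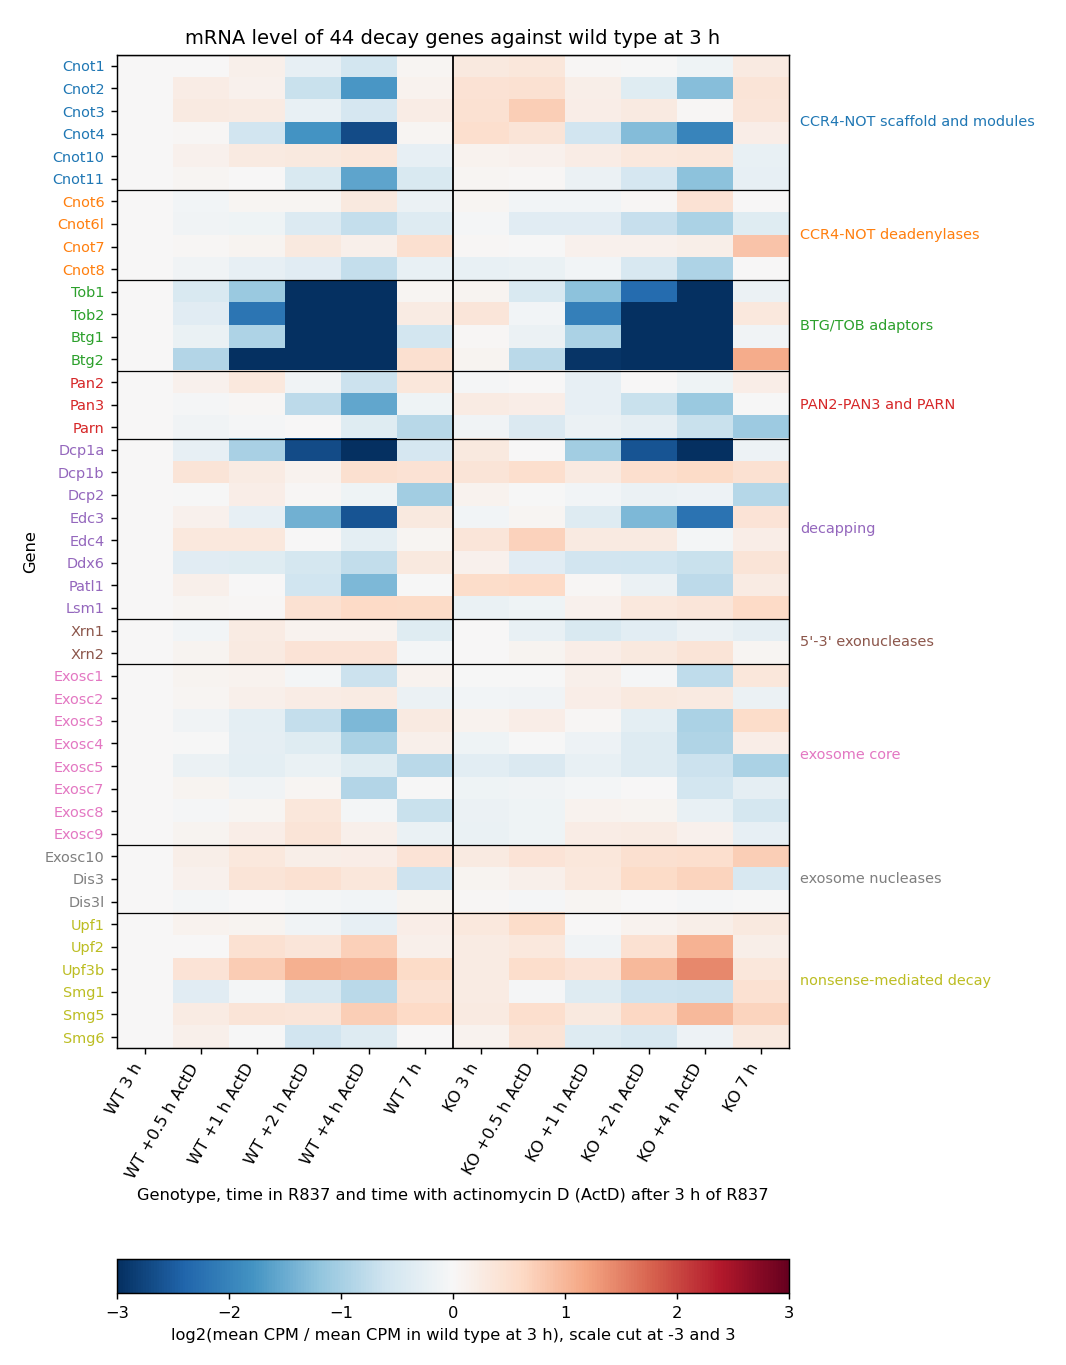
Mean level of each of the 44 members in the 12 groups (columns: wild type then knockout, by time in R837 or with actinomycin D), as log2 of the ratio to wild type at 3 h of R837, with genes in rows by role. The 4 BTG/TOB adaptors, Dcp1a, Cnot4 and Edc3 are the darkest blue at 2 and 4 h of ActD in both genotypes; colours beyond -3 are not resolved.

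All 4 BTG/TOB adaptors had negative slopes in both genotypes. Btg2, an antiproliferative protein that binds CNOT7 and CNOT8 (chr1:134075170-134079120, minus strand), was at 52.7, 61.6 and 51.6 CPM in the 3 wild-type libraries at 3 h of R837. It was at 5.71, 5.94 and 7.13 CPM after 1 h of ActD and 0.613, 0.548 and 1.04 CPM after 4 h. Its level after 1 h was 11.3% of the level before ActD, and no library of either time overlapped the libraries before ActD. The knockout libraries gave 56.2, 62.4 and 57.4 CPM before ActD and 7.63, 7.58 and 6.36 CPM after 1 h. The slopes were -2.08 ± 0.18 per hour in wild type and -1.94 ± 0.16 in knockout (edgeR adjusted p = 8.14e-12 and 3.53e-12). A single line understates the early loss: over the first 2 h alone the slopes were -2.79 and -2.77.

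Tob2, which joins CNOT7 or CNOT8 to poly(A)-binding protein (chr15:81848272-81858796, minus strand), had the most negative slope of the members, -2.24 ± 0.15 per hour in wild type and -2.19 ± 0.14 in knockout. It was at 26.3, 25.5 and 23.4 CPM before ActD, at 4.54, 6.64 and 5.27 CPM after 1 h and at 0.983, 0.853 and 0.795 CPM after 2 h in wild-type cells. Only 0.236% of all genes tested had a more negative slope in wild type. The knockout libraries went from 34.9, 32.3 and 30.0 to 1.00, 0.720 and 0.992 CPM over the same 2 h. At 4 h the gene had 2 to 11 counts per library, so its level there was limited by depth.

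Btg1, the other BTG adaptor among the members (chr10:96617006-96622809, plus strand), was lost later than Btg2. It was at 126, 116 and 115 CPM in wild-type cells before ActD and still at 103, 104 and 106 CPM after 0.5 h, or 87.8%, where Btg2 was at 54.7%. By 4 h Btg1 was at 2.17, 1.51 and 1.86 CPM. The slopes were -1.59 ± 0.07 and -1.63 ± 0.07 per hour in wild type and knockout. Tob1, the paralog of Tob2 (chr11:94211454-94215495, plus strand), started at only 5.02, 5.33 and 3.52 CPM and fell to 0.393, 0.746 and 0.398 CPM after 2 h (slopes -1.33 ± 0.10 and -1.31 ± 0.09). At 4 h it had 0 to 7 counts per library, and the library with 0 counts allows up to 0.0998 CPM, for counting error only.

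**Figure D2:**
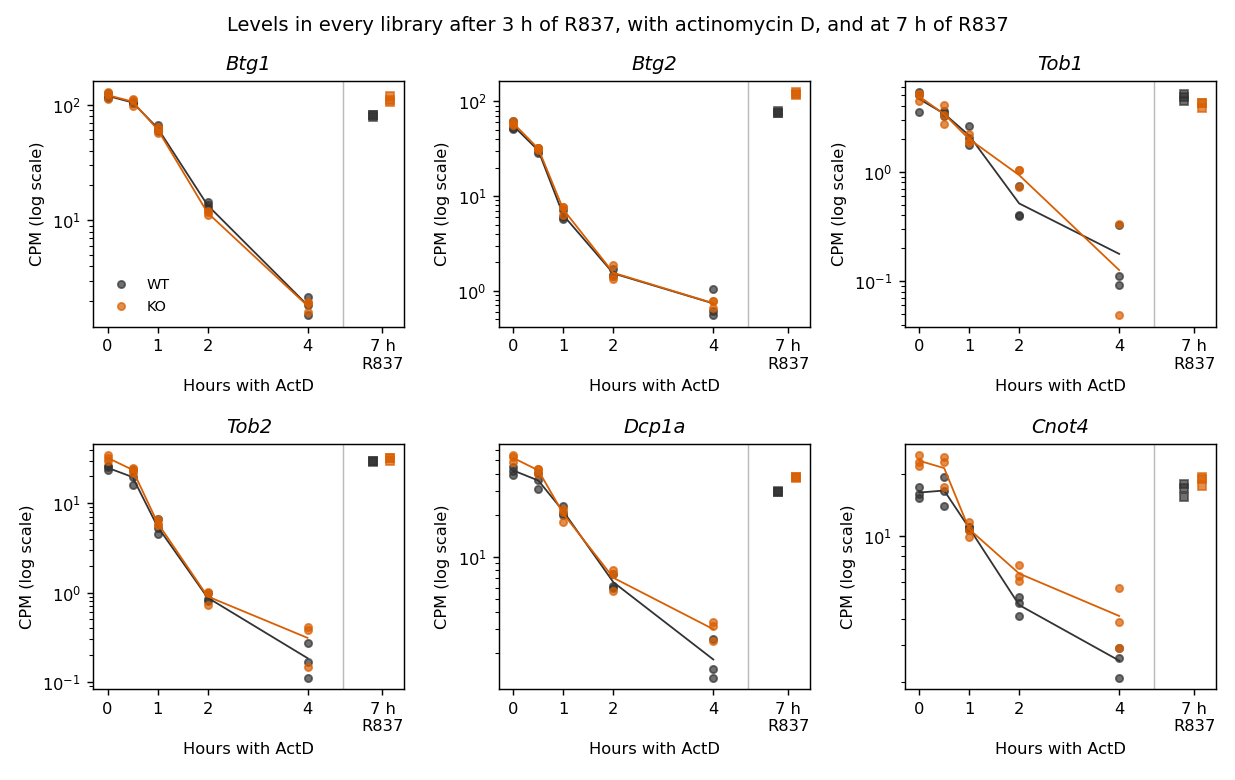
CPM on a log scale in every library for the 4 BTG/TOB adaptors, Dcp1a and Cnot4 against hours with ActD after 3 h of R837 (circles; lines join means of 3 libraries) and at 7 h of R837 without ActD (squares), wild type in grey and knockout in orange. The knockout and wild-type courses run close together for Btg1 and Btg2, and at 7 h the knockout squares are above the wild-type squares for these genes; a library of Tob1 with 0 counts is not drawn.

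The 3' untranslated regions (3' UTRs) of the fast-falling members were searched on the transcript strand for TATTTAT, the core of AU-rich elements, and TGTANATA, the Pumilio recognition sequence. The sites are shown because proteins that bind these elements are known to recruit deadenylases. One 3' UTR per gene was taken from GENCODE M21 on GRCm38, and 43 members had one. Of the 7 members with a wild-type slope below -0.5 per hour, 4 held TATTTAT, and these sites are printed with 9 flanking bases and the motif in capitals.
Btg2, chr1:134077251-134077275, minus strand: atgaagagcTATTTATacatgtttt
Tob2, chr15:81849862-81849886, minus strand: tcacctgctTATTTATgtacgaggt
Dcp1a, chr14:30524320-30524344, plus strand: catggtttcTATTTATgcttttatg
Edc3, chr9:57750555-57750579, plus strand: cttctagctTATTTATtggcttgcc
Tob1 and Cnot4 had neither sequence in this window.

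TATTTAT was present in 28.5% of the 3' UTRs of all genes tested and in 38.7% of those with a slope below -0.5 per hour. Of the 43 members, 10 (23.3%) held it. The fast-falling members had longer 3' UTRs (median 2457 bases, against 962 for all members). So did all genes tested with a slope below -0.5 per hour (median 1478 bases, against 1014 at any slope). Per kilobase the 7 members had 0.214 TATTTAT, against 0.324 in all genes with such slopes and 0.292 over all genes. A match describes these letters and is not a site of action. TGTANATA was in 34.9% of the members and 24.9% of all genes.

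Among the 8 decapping factors, 5 had a negative slope in wild type and 1, Lsm1, a positive one. That was 75% called, against 70.3% of all genes tested (34.8% negative and 35.5% positive). Dcp1a and Edc3 fell furthest. Dcp1a, the coactivator of DCP2 (chr14:30479535-30527063, plus strand), was at 42.3, 45.1 and 39.6 CPM in wild-type libraries before ActD and at 7.52, 6.01 and 6.16 CPM after 2 h. The knockout libraries fell from 54.9, 52.8 and 48.7 to 8.05, 7.48 and 5.68 CPM. Neither genotype overlapped between these times, and the slopes were -1.22 ± 0.07 and -1.10 ± 0.07 per hour (edgeR adjusted p = 1.35e-15 and 9.37e-16). The paralog Dcp1b had a slope of 0.10 ± 0.05 in wild type that did not pass the threshold. Edc3, a scaffold that binds DCP1 and DDX6, fell from 29.9, 31.5 and 31.6 to 4.90, 6.30 and 4.33 CPM over 4 h (slopes -0.70 ± 0.05 and -0.59 ± 0.04). Patl1, which bridges the LSM1-7 ring to the decapping enzyme, had slopes of -0.36 ± 0.04 and -0.35 ± 0.03. Dcp2 was at 111, 116 and 109.7 CPM before ActD and 110, 102 and 92.9 CPM after 4 h in wild-type cells, which overlapped. Its slope was -0.02 ± 0.02 in wild type, which did not pass, and -0.05 ± 0.02 in knockout, which did.

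Of the 6 CCR4-NOT scaffold and module subunits, 5 (83.3%) had a negative slope in both genotypes. Of all genes tested 34.8% were negative in wild type and 35.8% in knockout. Small slopes in this count depended on the setting. Over the first 2 h alone, Cnot3 passed in neither genotype (-0.15 in wild type and -0.17 in knockout). Cnot1 did not pass there in wild type (-0.12), and with the trend on width removed, given below, it was lower in neither genotype. Cnot4, an E3 ubiquitin ligase that associates with the complex, went from 15.3, 17.3 and 16.0 to 2.90, 2.60 and 2.08 CPM over 4 h in wild type and from 24.6, 22.8 and 21.7 to 5.67, 3.86 and 2.89 CPM in knockout (slopes -0.74 ± 0.07 and -0.65 ± 0.06 per hour). Cnot2, of the NOT module, had slopes of -0.48 ± 0.04 and -0.45 ± 0.04, and Cnot11 of -0.40 ± 0.03 and -0.33 ± 0.03. The 4 catalytic subunits stayed within -0.16 to 0.10 per hour in wild-type cells. Cnot7 was at 77.5, 70.05 and 78.5 CPM before ActD and 90.3, 73.3 and 87.8 CPM after 4 h, which overlapped.

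The remaining degradative enzymes had small slopes. Xrn1 and Xrn2 had wild-type slopes of 0.05 ± 0.03 and 0.12 ± 0.02 per hour, and the 3 exosome nucleases Exosc10, Dis3 and Dis3l lay between 0.00 and 0.10. The 8 core exosome subunits ranged from -0.33 for Exosc3, an RNA-binding cap subunit, to 0.08, with 4 lower and 1 higher. The 6 factors of nonsense-mediated decay ranged from -0.17 to 0.24, with 1 lower and 3 higher. Calls were 62.5% of the exosome core and 66.7% of the nonsense-mediated decay factors, against 70.3% of all genes tested. Pan3, the RNA-binding partner of PAN2, fell at -0.41 ± 0.04 in wild type and -0.35 ± 0.04 in knockout. Scaling to 96 ribosomal protein and elongation factor genes moved the median slope of all genes by -0.193 in wild type and -0.137 in knockout. Under it 0 of the 10 members with a positive wild-type slope remained higher, so these directions hold only relative to the average transcript. Slopes also followed deposited transcript width (Spearman rho -0.38 across 13537 genes in wild type, a description without a test). Members had a median width of 3779.5 bases against 2880 over all genes tested. With the trend on width removed, Cnot2, Cnot11, Pan3, Patl1 and Exosc3 stayed lower in wild type (slopes -0.41, -0.33, -0.28, -0.28 and -0.42), and Edc4, Ddx6 and Smg1 passed in neither genotype. Cnot1, which was lower in both before, then had slopes of 0.02 in wild type, which did not pass, and 0.05 in knockout, which passed in the other direction.

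**Figure D3:**
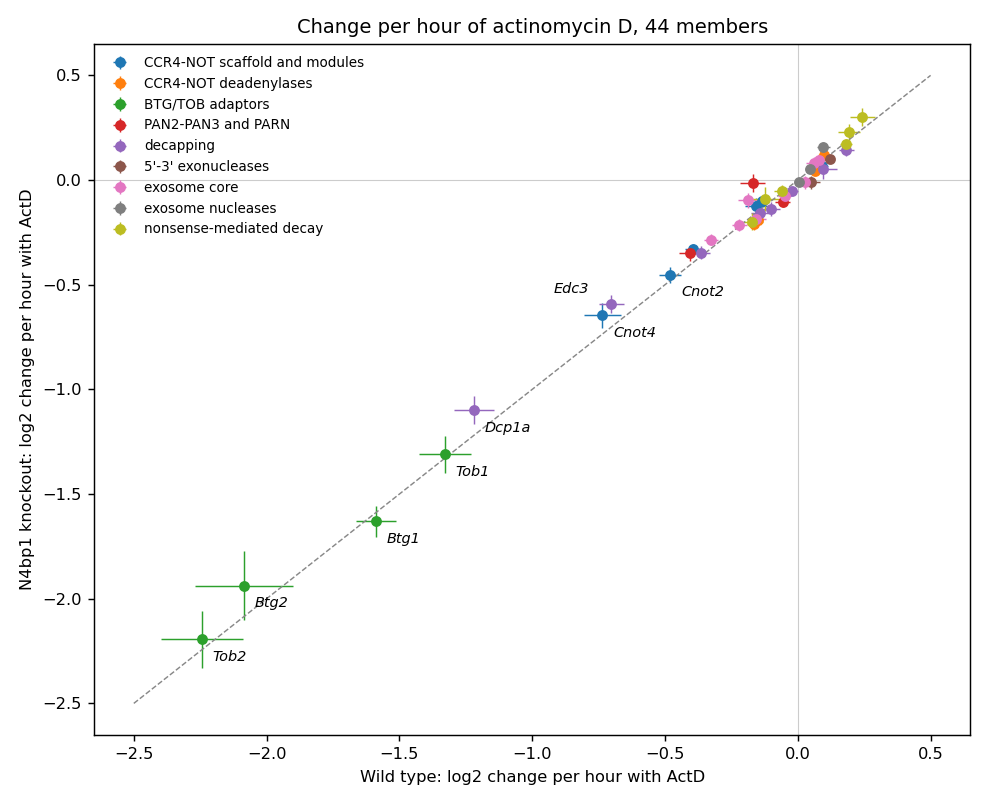
Slope of log2 expression per hour of actinomycin D in wild type (horizontal) and N4bp1 knockout (vertical) for the 44 members, with bars of 1 SE and colours by role; the dashed line marks equal slopes. The BTG/TOB adaptors and Dcp1a are at the lower left, most members lie near 0, and all lie close to the dashed line.

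The slopes of these mRNAs over hours of ActD did not differ detectably between genotypes. None of the 44 members passed the test of the difference in slope, where 9 of 13537 genes did (0.0665%, with 0.0517% higher and 0.0148% lower), and 1 member had an unadjusted p below 0.05 in edgeR. No alternative gave a member call. The differences, knockout minus wild type, ranged from -0.06 to 0.16 per hour, with a median SE of 0.0456. For Btg2 the difference was 0.15 ± 0.32, for Btg1 -0.04 ± 0.11, for Tob2 0.05 ± 0.29 and for Dcp1a 0.12 ± 0.10 per hour. These errors are SEs and not a limit of detection. With adjustment over 13537 genes, larger differences could also go undetected. The biological coefficient of variation was 12.7% in this model, against 7.48% in the model of 12 groups. A single line also cannot resolve differences confined to some times. Xrn1 did not pass before ActD and was lower in knockout at 1 h and 2 h (log2 -0.69 and -0.42). The genotype difference in the change from 0 to 1 h of ActD was not tested.

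Between 3 h and 7 h of R837, members moved in both directions. In wild-type cells 10 were higher and 14 lower at 7 h, where 27.3% of all genes tested were higher and 30.7% lower (58% in all). In knockout cells 11 were higher and 13 lower, where 28.7% of all genes were higher and 31.7% lower (60.4% in all). Shares of members called were 54.5% in each. The largest falls were those of Dcp2 and Parn. Dcp2, the decapping enzyme, was at 111, 116 and 109.7 CPM at 3 h and 54.1, 55.0 and 53.1 CPM at 7 h in wild type. In knockout it was at 124, 117 and 119 CPM at 3 h and 59.2, 62.1 and 63.1 CPM at 7 h. The groups did not overlap in either genotype (log2 -1.05 ± 0.08 and -0.97 ± 0.08, edgeR adjusted p = 4.73e-15 and 4.34e-14). Parn, a poly(A)-specific ribonuclease of the nucleus and cytoplasm, fell from 17.7, 17.8 and 16.7 to 9.87, 9.47 and 10.2 CPM in wild type and from 16.2, 16.0 and 16.1 to 8.30, 7.65 and 8.51 CPM in knockout (log2 -0.82 ± 0.10 and -0.98 ± 0.10).

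Exosc5, a core exosome subunit, fell by 0.80 ± 0.09 in log2 in wild type and by 0.64 ± 0.09 in knockout, and the exosome nuclease Dis3 fell by 0.64 ± 0.08 and 0.55 ± 0.08. Those that rose in both genotypes included Lsm1, the cytoplasmic subunit of the LSM1-7 ring (log2 0.58 ± 0.10 and 0.81 ± 0.10), Smg5, an adaptor of nonsense-mediated decay (0.60 ± 0.08 and 0.38 ± 0.08), and the exosome nuclease Exosc10 (0.40 ± 0.08 and 0.46 ± 0.08). Of the 24 calls in each genotype, 18 in wild type and 22 in knockout held with each library left out in turn.

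Dcp2 and Dis3 were lower at 7 h of R837 than after 3 h of R837 with 4 h of ActD, with the default scaling. After 4 h of ActD, Dcp2 was at 102 ± 8.55 CPM in wild type, against 54.1 ± 0.921 CPM at 7 h without ActD (log2 -0.91 ± 0.08), and at 101 ± 11.1 against 61.5 ± 2.02 CPM in knockout (-0.71 ± 0.08). Dis3 was at 18.7, 17.7 and 20.8 CPM at 3 h, 24.7, 24.1 and 23.7 CPM with 4 h of ActD and 12.4, 11.4 and 12.96 CPM at 7 h in wild type, so its relative level was higher with ActD than before it. It gave -0.98 ± 0.08 and -1.15 ± 0.08 for 7 h against ActD in wild type and knockout. Here 27 members were higher and 13 lower at 7 h in wild type, where 37.9% and 37.3% of all genes were (75.3% in all). In knockout 26 were higher and 13 lower, where 38% and 36.1% of all genes were (74.1% in all). All 4 BTG/TOB mRNAs were higher at 7 h, by 4.77 to 7.25 in log2 in wild type. This comparison depended on scaling. The ribosomal reference moved the median of all genes by 0.718 in wild type and 0.441 in knockout, and the share of calls that were higher from 50.4 to 85.5% and from 51.3 to 74.9%. Under it Dis3 stayed lower in both genotypes (-0.26 and -0.71) and Dcp2 passed only in knockout (-0.20 and -0.27).

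At 7 h Btg1, Btg2 and the deadenylases Cnot7 and Cnot8 were higher in the knockout. In all, 10 members were higher and 1 lower in knockout than in wild type. That was 25% of the members, where 15.5% of all genes tested were higher and 15.1% lower (30.6% in all). Btg2 was at 76.0, 76.0 and 78.5 CPM in the wild-type libraries at 7 h and at 119, 116 and 125 CPM in the knockout libraries. Every knockout library exceeded every wild-type library (log2 0.65 ± 0.08, edgeR adjusted p = 5.35e-09), whereas at 3 h the genotypes overlapped (0.09 ± 0.08). Btg1 was at 81.8, 78.2 and 81.6 CPM in wild type and 111, 117 and 105 CPM in knockout at 7 h, again without overlap (log2 0.46 ± 0.07, edgeR adjusted p = 5.83e-07).

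Cnot7 was at 101, 107 and 107 CPM in wild type and 135, 142 and 131 CPM in knockout at 7 h (log2 0.38 ± 0.08, edgeR adjusted p = 3.48e-04). Its libraries overlapped between genotypes at 3 h and not at 7 h. Cnot8 was at 42.7, 41.4 and 39.3 CPM in wild type and 48.6, 47.6 and 47.0 CPM in knockout at 7 h (log2 0.21 ± 0.07), and at 3 h it was lower in the knockout (46.1, 46.2 and 50.9 against 40.6, 38.7 and 43.7 CPM, log2 -0.22 ± 0.07). The Cnot8 call at 7 h was lost in 5 of 14 alternatives, among them without wild-type library 3 or knockout library 1, and that at 3 h in 6 of 14, among them without wild-type library 3 or knockout library 1 or 2. Tob1 and Tob2, the other adaptors, did not pass at 7 h (log2 -0.24 ± 0.19 and 0.09 ± 0.10). Tob2 was at 30.2, 28.9 and 29.7 CPM in wild type and 32.0, 32.0 and 30.1 CPM in knockout, and Tob1 at 5.18, 4.45 and 4.81 and 4.24, 4.20 and 3.80 CPM. The calls of Btg1, Btg2, Cnot7 and Exosc10 held under every alternative and with each library left out. The summed B cell, fibroblast and neutrophil markers were also higher in knockout at 7 h. The neutrophil list summed to 581.6 to 600.5 CPM in wild type and 869.8 to 906.9 CPM in knockout. The dendritic cell list was also higher (17.8 to 19.1 and 34.8 to 35.5 CPM), and the part of these lists was not tested. Over all libraries Ccr7 reached 33.1 CPM and the other dendritic markers at most 5.39 CPM. S100a8 and S100a9 reached 564 and 500 CPM and the other neutrophil markers at most 119 CPM. Single markers were not compared between genotypes.

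The change from 3 to 7 h itself differed between genotypes for these genes. The interaction test called 4 members, all higher in knockout, or 9.09%. Of all genes tested 5.45% were higher and 6.84% lower (12.3% in all). Btg2 rose by 0.47 in wild type and by 1.04 in knockout (difference 0.56 ± 0.11, edgeR adjusted p = 2.00e-04). Btg1 fell by 0.56 in wild type and had a change of -0.12 that did not pass in knockout (difference 0.44 ± 0.10, edgeR adjusted p = 9.37e-04). Cnot8 fell by 0.22 in wild type and rose by 0.22 in knockout (difference 0.44 ± 0.10), and Cnot7 rose in both (difference 0.35 ± 0.12, edgeR adjusted p = 0.0406). Scaling to ribosomal genes moved the median difference of all genes by -0.203, and under it none of the 4 passed (0.36 for Btg2, 0.24 for Btg1, 0.23 for Cnot8 and 0.15 for Cnot7).

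**Figure D4:**
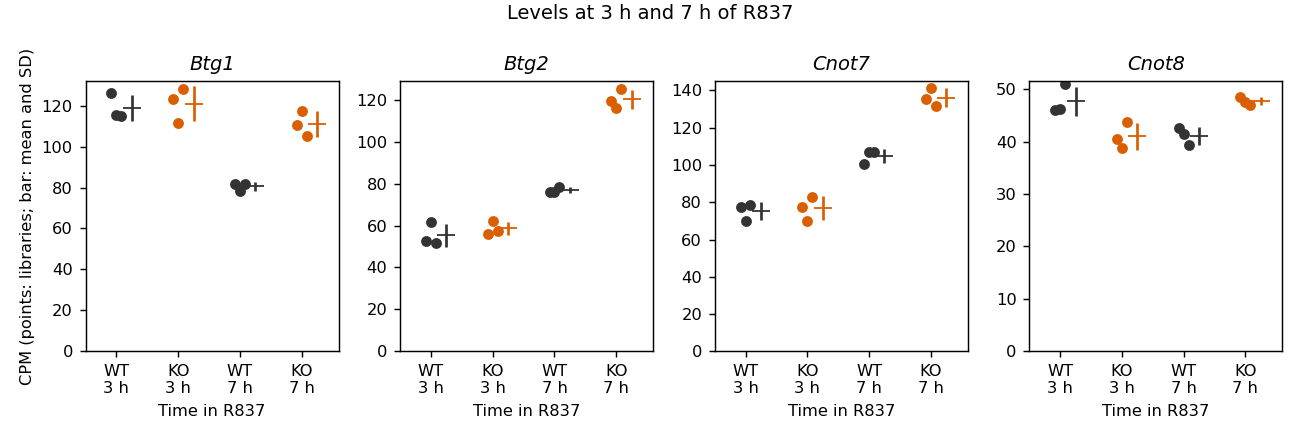
CPM of Btg1, Btg2, Cnot7 and Cnot8 in each library (points) of wild type (grey) and knockout (orange) at 3 h and 7 h of R837, with the mean and SD beside each group and axes from 0. At 7 h the 3 knockout libraries are above the 3 wild-type libraries for each gene; at 3 h they overlap for Btg1, Btg2 and Cnot7 and are lower for Cnot8.

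The promoter of Btg2 is shown in part because Btg2 was the adaptor with the largest difference at 7 h. RefSeq promoters on GRCm38.p6 (250 bases before to 50 after the start) were matched for 37 members and searched on both strands for TGACGTCA, a palindromic cyclic AMP response element, and for TATAAA, the core promoter element, TGANTCA, the AP-1 sequence, and GGGNNTTTCC, an NF-kB sequence. TGACGTCA lay in 1.79% of 32851 promoters and, among the members, only in that of Btg2, 166 bases before the start. The motif is in capitals, read on the minus strand.
Btg2, chr1:134079303-134079332, minus strand: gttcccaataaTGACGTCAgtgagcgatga
TATAAA lay in 13.6% of all promoters and in those of Btg1 and Tob1, TGANTCA in 7.81% and in Pan2 and Patl1, and GGGNNTTTCC in 1.63% and in Dis3 and Edc3. The motifs were chosen after the values were seen, and a match is a description of sequence.

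At 3 h of R837, several CCR4-NOT scaffold and decapping mRNAs were higher in the knockout. The test called 11 members higher and 3 lower (31.8% of members). Of all genes tested 15.2% were higher and 12.6% lower (27.8% in all). The members had a median log2 change of 0.09, against 0.01 over all genes. Of the 6 scaffold and module subunits, 4 were higher (Cnot1 to Cnot4), and of the 8 decapping factors 3 were higher. Patl1 was at 26.6, 25.7 and 22.9 CPM in wild type and 40.2, 37.9 and 31.5 CPM in knockout (log2 0.55 ± 0.09, edgeR adjusted p = 2.03e-05). Cnot4 was at 15.3, 17.3 and 16.0 CPM in wild type and 24.6, 22.8 and 21.7 CPM in knockout (log2 0.51 ± 0.13, edgeR adjusted p = 0.0023). Neither gene overlapped between genotypes. Scaling to ribosomal genes moved the median of all genes by 0.205 at 3 h and 0.28 at 4 h of ActD, and the share of all calls that were higher in knockout from 54.7 to 90.2% and from 49.8 to 89.3%, so directions are relative to the average transcript.

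Cnot2 (log2 0.42 ± 0.10) and Edc4, the scaffold of the decapping complex (0.37 ± 0.09), were also higher at 3 h. These, Patl1 and Cnot4 were the 4 of 14 calls that held with each library left out. Without knockout library 1 at 3 h 5 calls were left, and without wild-type library 3 at 3 h 7 were left. Tob2 was at 32.4 ± 2.47 CPM in knockout against 25.1 ± 1.48 in wild type (log2 0.37 ± 0.11), a call that was lost without either of these libraries. Of the 8 exosome core genes 0 were higher and 2 were lower (Exosc5 -0.31 ± 0.09 and Exosc9 -0.21 ± 0.07), calls that did not hold with each library left out.

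Genotype differences in members during ActD varied with time. At 0.5 h 9 members were higher and 3 lower in knockout, where 13.7% of all genes were higher and 12.7% lower (26.4% in all). At 1 h 1 was higher and 5 lower (all genes 7.51% and 9.92%, 17.4% in all). At 2 h 9 were higher and 6 lower (all genes 14.7% and 15.4%, 30.2% in all). At 4 h 16 were higher and 4 lower (all genes 17.7% and 17.9%, 35.6% in all), which is 45.5% of the members. Patl1 was higher in knockout at 0.5, 2 and 4 h (log2 0.43 ± 0.09, 0.43 ± 0.10 and 0.56 ± 0.11) and did not differ by the test at 1 h (0.02 ± 0.09). Patl1 was at 11.1, 9.69 and 8.71 CPM in the wild-type and 14.9, 14.2 and 14.3 CPM in the knockout libraries at 4 h, without overlap. Exosc3 was higher at 0.5, 1, 2 and 4 h (log2 0.29 ± 0.09, 0.33 ± 0.10, 0.42 ± 0.10 and 0.38 ± 0.11) and was the 1 member called higher at 1 h; only its calls at 2 h and 4 h held with each library left out. At 4 h, Dcp1a was at 2.56, 1.32 and 1.53 CPM in wild type and 3.39, 2.45 and 3.15 CPM in knockout (log2 0.78 ± 0.20), where 1 wild-type library exceeded the lowest knockout library. Cnot3, of the NOT module, was at 6.80, 6.26 and 5.81 CPM in wild type and 10.4, 8.43 and 8.53 CPM in knockout, without overlap (log2 0.55 ± 0.14). Cnot4 differed by 0.76 ± 0.19 at 4 h, a call lost without knockout library 1 (log2 0.40), where the genotypes overlapped.

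Pan2 changed sides between times. It was at 3.05, 3.10 and 3.77 CPM in wild type and 2.53, 2.40 and 1.84 CPM in knockout at 1 h (log2 -0.54 ± 0.17), and at 1.62, 1.83 and 1.64 and 2.40, 2.68 and 2.22 CPM at 4 h (log2 0.51 ± 0.20). The groups did not overlap at either time. The call at 1 h was lost without wild-type library 3 or knockout library 3, and that at 4 h without any of 5 of the 6 libraries.

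Xrn1 and Upf2 were lower in knockout at 1 h. Xrn1, the main cytoplasmic 5'-3' exonuclease, was at 39.4, 36.4 and 42.7 CPM in wild type and 23.8, 27.0 and 22.6 CPM in knockout (log2 -0.69 ± 0.10, edgeR adjusted p = 8.34e-07). It was also lower at 2 h and 4 h (-0.42 ± 0.10 and -0.28 ± 0.10) (the call at 4 h did not hold with each library left out) and did not pass at 3 h without ActD (0.00 ± 0.09) or at 7 h (0.09 ± 0.10). Upf2, a core factor of nonsense-mediated decay, was at 11.5, 13.1 and 14.2 CPM in wild type and 8.95, 8.02 and 9.08 CPM in knockout at 1 h (log2 -0.57 ± 0.12), and was higher in knockout at 4 h (0.34 ± 0.12), a call lost without any of 3 libraries. Of the 6 calls at 1 h, only these held with each library left out. No member differed between genotypes by a called change of 1 or more in log2 in any of the 6 conditions, the largest being 0.78.

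Differences between genotypes followed deposited transcript width, with Spearman rho across 13748 genes of 0.30 at 3 h, 0.22 at 0.5 h, -0.29 at 1 h, 0.14 at 2 h, 0.24 at 4 h and 0.10 at 7 h (descriptions without a test). The part of width in the member calls was examined by removing this trend. With the trend on width removed, 11 of 14 calls were kept at 3 h and 10 of 12 at 0.5 h. At 1 h 3 of 6 were kept and at 2 h 13 of 15. At 4 h 15 of 20 were kept and at 7 h 10 of 11. Those kept included Xrn1 at 1 h (-0.47), Patl1 at 3 h (0.50), Cnot4 at 3 h (0.43) and Dcp1a at 4 h (0.64). Those lost included Cnot1 at 3 h (0.13) and Pan2 at 1 h (-0.45). At 7 h the corrected values were 0.65 for Btg2 and 0.40 for Btg1.

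**Figure D5:**
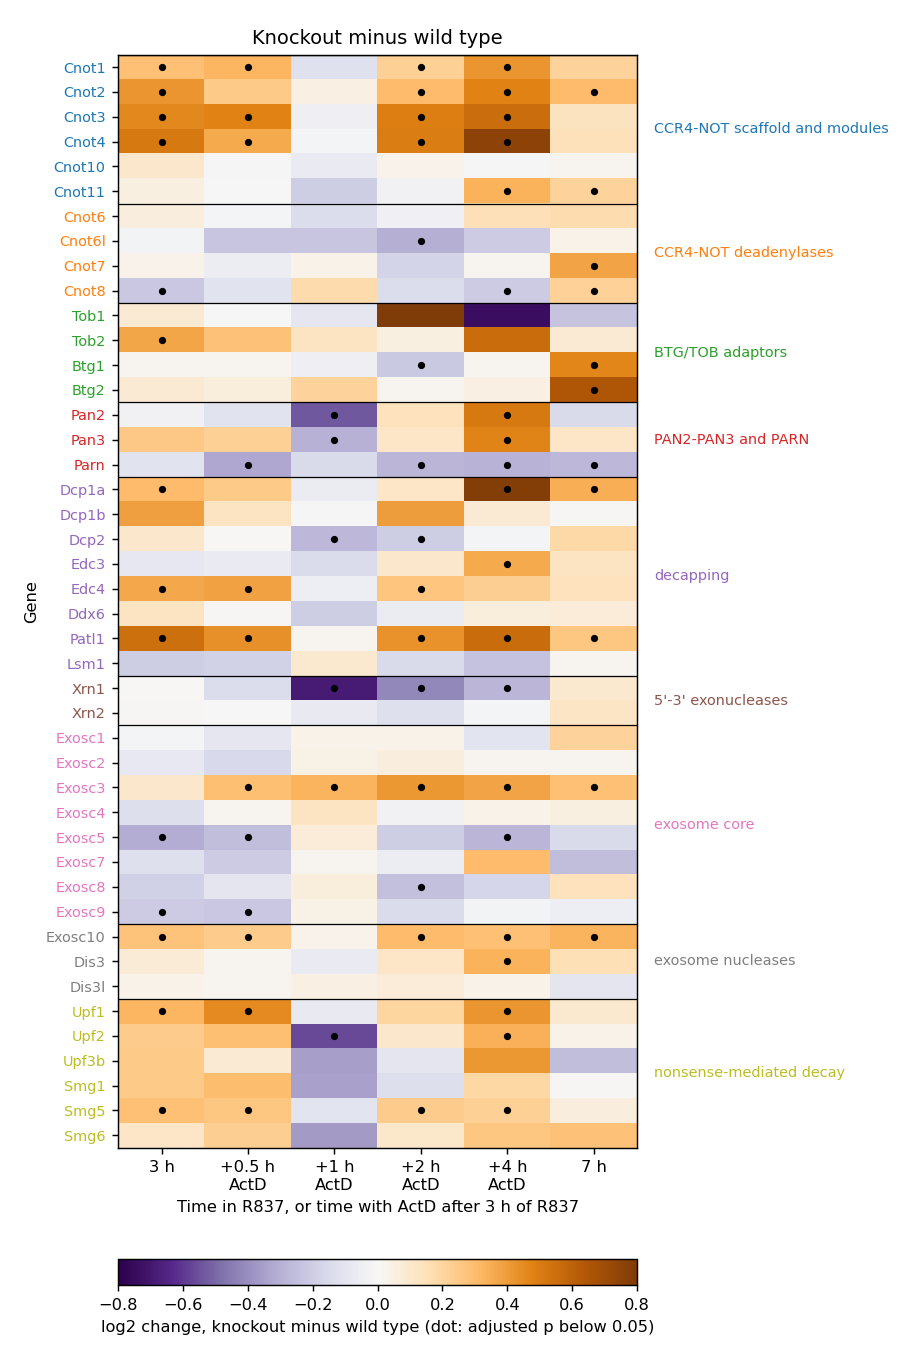
Log2 change, knockout minus wild type, for the 44 members (rows, by role) in 6 conditions (columns), with a dot where the adjusted p of the edgeR quasi-likelihood test is below 0.05. Of the dots, 11 of 14 at 3 h and 16 of 20 at 4 h of ActD are higher in knockout and 5 of 6 at 1 h are lower, and at 7 h Btg1, Btg2 and Cnot7 stand out; no cell with a dot exceeds 0.78.

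A list of 50 other RNA turnover genes, of which 47 were tested, is given beside the members. At 3 h 11 were higher and 5 lower in knockout, or 34.0%. Of all genes tested 15.2% were higher and 12.6% lower (27.8% in all). At 7 h 13 were higher and 0 lower, or 27.7%, where 15.5% and 15.1% of all genes were (30.6% in all). In wild-type cells 20 had a negative and 13 a positive slope, or 70.2%. Of all genes 34.8% were negative and 35.5% positive (70.3% in all). None of the 47 passed the test of the slope difference, where 0.0665% of all genes did. Pnrc1, which binds the decapping complex, was higher in knockout at 3 h and 7 h (log2 0.66 ± 0.09 and 0.68 ± 0.09) and had a slope of -1.27 ± 0.07 per hour in wild type. Magohb, a core component of the exon junction complex, had the largest difference of the list at 7 h (log2 1.23 ± 0.11). Smg8, a subunit of the SMG1 kinase complex, had a wild-type slope of -1.21 ± 0.06 per hour, where the 6 nonsense-mediated decay members lay between -0.17 and 0.24.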

How the data were processed

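Each of 36 libraries (TruSeq RNA v2, single-end 50 base reads, per the labels' protocols) has a deposited table with, per gene, a count, an RPKM value and a width. Reads were aligned by the authors with GSNAP to GRCm38, per the submitters' processing notes; the counting program, annotation, strand setting and treatment of near-identical copies are not given in the sources used here. As deposited, counts are whole numbers that were not normalized, and the deposited RPKM values are the authors' counts scaled to gene width and to the library's reads, used only to compare levels between genes.

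Counts were tested with edgeR 4.0.16 in R 4.3.3 (quasi-likelihood F test, TMM, filterByExpr, Benjamini-Hochberg adjustment over all genes tested, called at 0.05). One model of 12 groups (13748 genes, 24 residual degrees of freedom) gave 11 contrasts, and a log-linear model over hours of ActD (13537 genes, 30 libraries) gave 3. CPM are TMM-scaled, and an SE is the log2 change divided by the root of F. Only the knockout against wild type test at 3 h and the test of the slope difference were checked on simulated data. Changes were simulated only in genes with higher counts, and the other contrasts were not checked in this way. Alternatives used DESeq2 1.42.0, other scalings and filters, removal of the trend on width, a shorter ActD course and each library left out. By the rule for named genes, values in every library are given for the 4 BTG/TOB genes and for members that passed with an absolute log2 change of at least 0.5 between genotypes or in the interaction, and other members by range and count, with the largest of each class named. Other members given per library (such as Dcp2, Parn, Edc3, Cnot7 and Cnot8) were chosen after their values were seen. The members and lists were chosen with earlier results of these data known. Totals of 20.3 to 46.1 M counts set the counting error; SDs and SEs also include variation between libraries, and the limit given for 0 counts covers counting error only. One sequence result is not reported here.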

Additional observations from a re-analysis of the deposited data

Results flagged for a closer look

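The change from 3 h to 7 h of R837 differed between genotypes for 4 members by the interaction term of the edgeR model, each higher in knockout. The difference, knockout minus wild type on the log2 scale, was 0.561 for Btg2, 0.439 for Btg1, 0.436 for Cnot8 and 0.349 for Cnot7. None of these 4 differences passed when libraries were scaled to ribosomal genes, and that of Cnot7 did not hold with each library left out.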

How the results depend on the processing

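No paired analysis was possible because the labels carry no replicate numbers that tie libraries across groups. Counts of members called, knockout against wild type, moved with single libraries left out. They ranged from 5 to 17 at 3 h (main 14; 5 without knockout library 1, 7 without wild-type library 3), from 5 to 15 at 0.5 h of ActD (main 12; 5 and 7 without wild-type libraries 2 and 3), from 2 to 7 at 1 h (main 6; 2 without knockout library 3, 3 without wild-type library 3), from 7 to 11 at 2 h (main 15; 8 and 9 without wild-type libraries 2 and 3, 7 and 8 without knockout libraries 1 and 2), from 10 to 18 at 4 h (main 20; 10 without knockout library 1, 13 without wild-type library 3) and from 6 to 10 at 7 h (main 11; 6 without wild-type library 3, 7 without knockout library 1 or 2). Fitting only the libraries compared gave 5 at 0.5 h and 17 at 7 h. Library totals alone gave 10 at 1 h and 7 at 7 h, removal of the width trend 3 at 1 h, and no filter 7 at 7 h. Ribosomal scaling gave 5 at 7 h and 0 for the interaction, and turned Cnot8 at 4 h of ActD to 0.072 and, for 7 h against 4 h of ActD in wild type, Cnot10 to 0.132, Exosc8 to 0.115 and Upf2 to 0.135; the cause was not tested. Ribosomal scaling moved the share of all calls that were higher from 51.9 to 78.8% at 0.5 h, from 43.1 to 17.1% at 1 h, from 48.8 to 78.3% at 2 h, from 44.3 to 14.8% in the interaction and from 50.5 to 6.9% and 47.5 to 8.2% in the slopes of wild type and knockout. Library totals moved it from 50.6 to 30.7% at 7 h, from 43.1 to 30.0% at 1 h, from 47.5 to 34.7% for 7 h against 3 h in knockout, from 44.3 to 29.4% in the interaction, from 50.4 to 62.3% for 7 h against 4 h of ActD in wild type, and from 50.5 to 24.2% and 47.5 to 26.8% in the slopes of wild type and knockout. Removal of the width trend moved it from 43.1 to 56.9% at 1 h. Of 3106 recomputed values for named members, 2783 kept direction and side of the threshold, 319 lost the call and 4 reversed. Tob1 and Tob2 at 4 h of ActD are limited by depth.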
